A study of Mus musculus with 2 samples.

Results

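The cells described here were the tumour cells with the highest summed level of Krt8, Has1, Itgb4, S100a16 and Lrrn4cl in MC38 tumours. MC38 is a mouse colon carcinoma line, grown here in C57BL/6 mice. One tumour library carried an RSPO3 overexpression construct (RSPO3-OE) and one was its control (Ctrl), each measured once by droplet single-cell RNA sequencing of the dissociated tumour. How many mice each library pooled, where and how long the tumours grew, which construct was used and whether either line was 1 clone were not given in the sources used here. A tumour cell was a barcode with no Ptprc (the pan-leukocyte CD45 gene), at least 1 unique molecular identifier (UMI) of Hmga2 and fewer than 10 UMIs of the C1q genes. The 5 genes' UMIs were divided by the cell's UMIs, and the highest 10% of all tumour cells were taken, which gave 853 of 8531 tumour cells among 14154 kept cells. Of these members, 766 came from RSPO3-OE and 87 from Ctrl, so members were 18.2% of the 4213 RSPO3-OE tumour cells (95% exact binomial interval 17.0 to 19.4%) and 2.01% of the 4318 Ctrl tumour cells (1.62 to 2.48%). One limit was set over both libraries, and the 5 genes were read at higher levels in RSPO3-OE tumour cells. These shares thus follow from the rule and are no separate result. Rspo3 matched the labels: it was found in 936 of 4213 RSPO3-OE tumour cells (22.2%, 107 UMIs per 1000000) and in 0 of 4318 Ctrl tumour cells, which allows a share of cells with a UMI of up to 0.0695% and sets no limit on cells that express it. With 1 library per group there is no replicate check, so no test was made; intervals cover counting error only, not variation between cells or tumours, and differences between the libraries cannot be told apart from differences between 2 tumours.

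Keratin 8 is a type II intermediate filament protein of simple epithelia, and it forms filaments only together with a type I partner, usually keratin 18. Integrin beta 4, from Itgb4, anchors keratin filaments to the basement membrane in hemidesmosomes. Has1 makes hyaluronan, a matrix polysaccharide, S100a16 encodes a calcium-binding protein, and Rspo3 is a secreted protein that strengthens Wnt signalling through LGR receptors.

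Members were chosen on these 5 genes, so the levels of the 5 genes among them are a description of the choice. The lowest member had a score of 1288.5 UMIs per 1000000 and the highest cell outside had 1287.9, within a continuous range: the last 50 cells inside lay between 1288.5 and 1345.6 and the first 50 outside between 1226.6 and 1287.9. The label of 3 high genes did not hold. Krt8 alone supplied 83.2% of the members' score UMIs in RSPO3-OE and 94.5% in Ctrl, and it made up most of the score in 700 of 766 and 86 of 87 members. The cells are therefore called Krt8-high cells below.

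Krt8 was read at a median of 47 UMIs per RSPO3-OE member (0 to 398) and 55 UMIs per Ctrl member (0 to 190). Summed over cells, its level was 1870.1 UMIs per 1000000 UMIs (CPM) in RSPO3-OE members against 200.6 CPM in the other tumour cells of that library, and 2149.7 against 35.2 CPM in Ctrl. Krt8 was thus read at a higher level in the other tumour cells of the RSPO3-OE library than in those of Ctrl, below a limit shared by both. The members of both libraries had passed this same limit, mostly through Krt8, so their similar level follows largely from the choice. Has1 was at 104 against 61.4 CPM, Itgb4 at 60.6 against 43.5 CPM and Lrrn4cl at 56.8 against 49.5 CPM in RSPO3-OE. S100a16 was at 157 against 155 CPM in RSPO3-OE but at 95.6 against 27.2 CPM in Ctrl (log2 1.81). In Ctrl members Has1 stood at 4.57 CPM, from 12 UMIs in 4 cells, and without the 1 richest cell its log2 difference from the others was -0.91. The per-cell plot of the score genes shows this order.

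**Figure D1:**
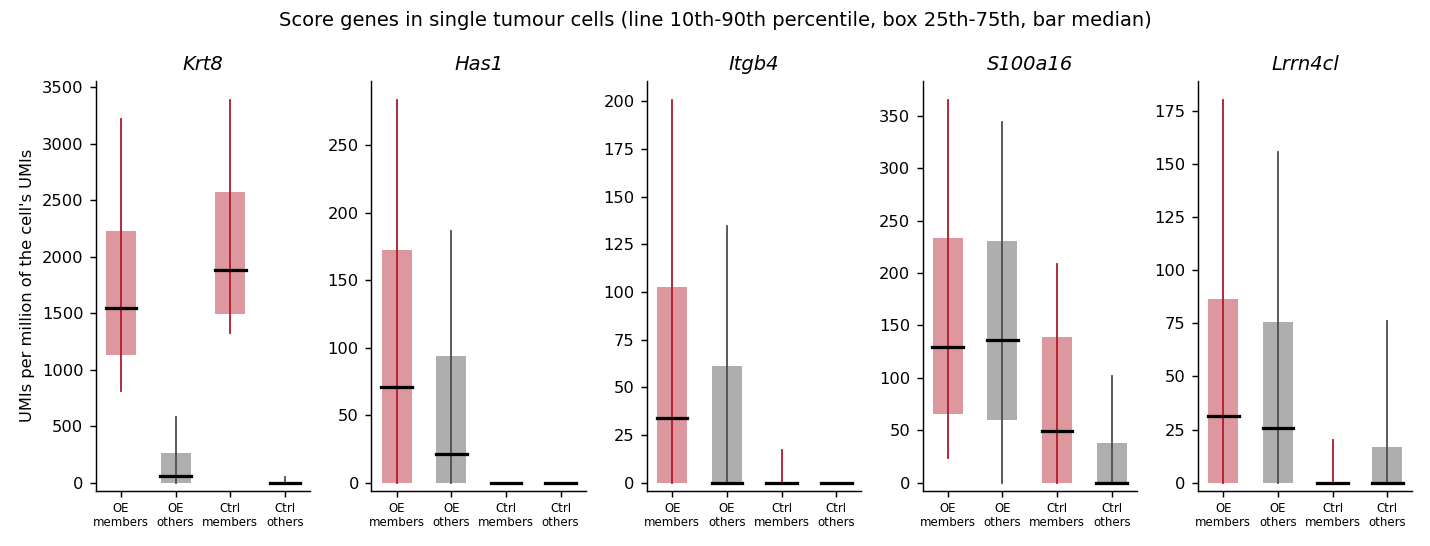
Level of each score gene in single tumour cells, in UMIs per 1000000 of the cell's own UMIs, by library and by membership. Lines run from the 10th to the 90th percentile of cells, boxes from the 25th to the 75th, and bars mark the median; each vertical axis has its own range. Krt8 separates the members in both libraries (median 1548.5 in RSPO3-OE members against 56.0 in the others), while S100a16 and Lrrn4cl overlap almost fully in RSPO3-OE and Has1 and Itgb4 have a median of 0 in Ctrl members.

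Detection per cell gave the same order. After every cell was thinned to 2000 UMIs, Krt8 was found in 93.7% of RSPO3-OE members and 23.7% of the others. The share in macrophage-like cells, which should lack it, was 3.67% (11.5% unthinned, median 12230.5 UMIs per cell). In Ctrl the shares were 98.9%, 4.38% and 0.674%. Has1 was found in 20.5% of RSPO3-OE members against 10.7% of the others, and S100a16 in 26.6% against 26.8%. Without thinning, all 5 genes were detected together in 221 of 766 RSPO3-OE members (28.9%) and in 0 of 87 Ctrl members. Of those Ctrl members, 83 had no Has1 UMI. The share among the other tumour cells is not given here, so these counts describe the members only.

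Choosing members without a gene and then measuring that gene shows how far the 5 genes went together. With members chosen by the other 4 genes, the log2 difference inside RSPO3-OE was -0.25 for Krt8 (interval -0.28 to -0.22), 0.43 for Has1 (0.36 to 0.50), 0.14 for Itgb4 (0.05 to 0.24), -0.18 for S100a16 (-0.24 to -0.13) and -0.14 for Lrrn4cl (-0.23 to -0.05). Cells chosen on the other 4 genes were thus slightly lower in Krt8 than the remaining tumour cells, at 466 against 555 CPM. Inside RSPO3-OE, Has1 was the only one of the 5 that was higher by more than 0.3. Inside Ctrl the order was another one, with 1.71 for S100a16 (1.52 to 1.90), 0.80 for Itgb4 (0.08 to 1.45), 0.41 for Krt8 (0.06 to 0.75), -1.07 for Has1, from 3 UMIs, and -1.98 for Lrrn4cl (-2.90 to -1.21). A score of Krt8 alone picked 750 of the 853 members, and a score of the 4 genes without Krt8 picked 221. Splitting each cell's UMIs at random into equal parts, choosing on one and measuring in the other, left Krt8 at log2 3.06 in RSPO3-OE and 5.79 in Ctrl. The cells so chosen held 89.8% and 90.8% of the members. Those UMIs had also helped choose the members, so this overlap is not an independent repeat.

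The tumour rule required Hmga2 in every tumour cell, so its presence in the members is no check of that rule. Hmga2 stood at 321 CPM in RSPO3-OE members and 360 CPM in the others. The 4 Y-linked genes, which the rule did not use, summed to 0.170 against 0.422 CPM. Epithelial markers other than Krt8 were at 0 or at 3.05 CPM or less in the members. Epcam, Cldn4 and Cldn7 had no UMI in any member of either library, and Krt19 had 1 UMI, in a Ctrl member. Krt18 was at 1.91 CPM in RSPO3-OE members, 45 UMIs in 8 of 766 cells with 22 of them in 1 cell, against 0.0757 CPM in the others. All 45 UMIs lay in cells that also carried Krt8 UMIs, which the choice of members nearly ensured, as only 7 of the 766 had none. In Ctrl, 8 Krt18 UMIs lay in 4 of the 87 members. Cdh1, which encodes E-cadherin, stood at 1.83 against 1.01 CPM in RSPO3-OE, from 43 UMIs, and at 0.762 against 0.848 CPM in Ctrl. Of 13 measured genes of a longer list of epithelial keratins and junctions, 3 were at least 1.5-fold higher and 0 lower in RSPO3-OE, Krt18, Cdh1 and Grhl2 (12 UMIs in members), where 3.8% of all genes were higher. Krt8 transcripts outnumbered those of the partner keratin by far in these cells (44053 against 45 UMIs in RSPO3-OE, with no correction for transcript length or capture). Of the 8 mesothelial markers, Msln (mesothelin) was read at 136 against 109 CPM in RSPO3-OE, while Upk3b, Lrrn4, Wt1 and Gpm6a had no UMI in any member. The longer mesothelial list had 5 of 8 genes at least 1.5-fold lower in RSPO3-OE, beside 9.78% of all genes. Its median was -0.83, and 0.08 after thinning to 2000 UMIs. No epithelial or mesothelial name was therefore given.

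Krt8 lies on chromosome 15 among the type II keratin genes, positions 101996698 to 102004482 on the minus strand (mm10, GENCODE vM21). Counted between the lowest coordinates of the genes, and not as the gap between them, Krt8 lies 31.5 kb from Krt18. Among 42 genes within 1 Mb that passed the count minimum, the median log2 difference between members and others was -0.04, beside -0.06 over all 12158 genes under the same minimum, with 2 at least 1.5-fold higher, Krt18 and Itgb7, and 3 lower. That is 4.76% and 7.14%, beside 1.37% and 6.10% of all genes under that minimum. The Krt8 promoter is shown because this gene carries the score. It is the window of 250 bases before to 50 after the start (RefSeq, GRCm38.p6, chr15:102004293-102004592, minus strand). The capitals mark a TATAAA match, which begins at position -1 from this annotated start. Whether it acts in transcription was not tested.

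Krt8: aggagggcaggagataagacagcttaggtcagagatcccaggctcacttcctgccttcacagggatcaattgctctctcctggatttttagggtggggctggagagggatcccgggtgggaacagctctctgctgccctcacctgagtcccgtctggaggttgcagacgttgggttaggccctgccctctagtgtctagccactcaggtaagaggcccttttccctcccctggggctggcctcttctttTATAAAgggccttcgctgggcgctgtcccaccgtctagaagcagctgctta

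The letters TATAAA, read on the gene's strand, occur in 8.32% of the 32851 promoter windows of the table. The AP-1 letters TGANTCA (7.81% of windows) and the TEAD letters GGAATG (14.7%), both read on either strand, were not in the Krt8 window or in that of Has1. One of 2 S100a16 windows held the AP-1 letters. The table matched 3 of the 5 score genes.

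Beyond the genes that chose them, Krt8-high cells of the RSPO3-OE library were mainly low in matrix and fibroblast-associated genes. Of 14197 genes with at least 10 UMIs, 540 were at least 1.5-fold higher (3.8%) and 1388 at least 1.5-fold lower (9.78%) than in the other RSPO3-OE tumour cells, with a median log2 of -0.06. Counting the genes with at least 10 UMIs expected in the members alone, 167 were higher and 742 lower. Among 16 measured genes of a fibroblast list, 11 were at least 1.5-fold lower and 1 higher, with a median log2 of -0.99. Among 18 measured collagen and matrix genes, 11 were lower and 1 higher, with a median of -0.71. In Ctrl, where 158 of 9717 genes were higher (1.63%) and 656 lower (6.75%), 6 of 10 fibroblast genes were lower and 1 higher (median -0.75), and 2 of 14 matrix genes were lower and 1 higher (median -0.34).

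The lowest named genes were of several kinds, and 3 of the 15, Aspn, Ogn and Dcn, encode small leucine-rich proteoglycans of the matrix. Aspn (asporin) stood at 6.58 CPM in RSPO3-OE members and 106 CPM in the others (log2 -4.01, interval -4.25 to -3.78), and at 9.14 against 45.02 CPM in Ctrl. Ogn (osteoglycin) stood at 6.79 against 52.5 CPM (log2 -2.95). Dcn (decorin) stood at 904 against 2375 CPM (log2 -1.39) and, in Ctrl, at 528 against 1717 CPM (log2 -1.70). All these genes were low in the members of both libraries. Mgp, an inhibitor of calcification, was at 98.6 against 561 CPM (log2 -2.51), and Col3a1, a fibrillar collagen, at 567 against 1619.6 CPM (log2 -1.51). Apod (apolipoprotein D), Cebpd (a transcription factor), Cst3 (the protease inhibitor cystatin C), Mfap5 (a microfibril protein), Angptl7, Adamts1, Islr and Gas1 lay between log2 -2.07 and -0.98. In Ctrl all 15 lowest genes had the same sign, which the naming rule required, and 12 of them were at least 1.5-fold lower.

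Complement genes of the classical pathway were low as well, in a list made after the values were seen. C1s1, a protease of the first component, stood at 13.4 against 68.9 CPM (log2 -2.36) and its partner C1ra at 27.0 against 89.9 CPM (log2 -1.74) in RSPO3-OE. All 8 measured complement genes were at least 1.5-fold lower there, beside 9.78% of all genes. In Ctrl the 2 measured genes, C1s1 and C1ra, were also lower. C2, which fell under the count minimum in Ctrl, stood at 13.7 CPM in its members against 2.85 CPM in the others.

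The same low genes mark other tumour cells of this library. Of RSPO3-OE tumour cells, 688 (16.3%) were among the highest 10% for Mgp plus Apod, and 15 of them were members, 1.96% of the members and 2.18% of the Mgp and Apod high cells. Cells high in Lum (lumican) plus Pdgfra held 6 members, 0.783% of the members. With the Mgp and Apod high cells left out of both sets, Aspn was at log2 -3.17, Col3a1 at -0.88 and Mgp at -0.64, and the fibroblast list median was -0.67. Among fibroblast markers Dcn made up most of the sum. The 7 markers summed to 986 CPM in RSPO3-OE members and 2572 CPM in the others, and to 722 against 1895 CPM in Ctrl, with none of the 7 at 0 in RSPO3-OE members and 1 at 0 in Ctrl members. Without Dcn they summed to 81.8 against 197 CPM in RSPO3-OE and to 194 against 178 CPM in Ctrl, where Col1a1 stood at 138 against 80.3 CPM. The part of other cell types in the result was not tested, and in summed counts fewer cells with a gene and less RNA per cell cannot be told apart.

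**Figure D2:**
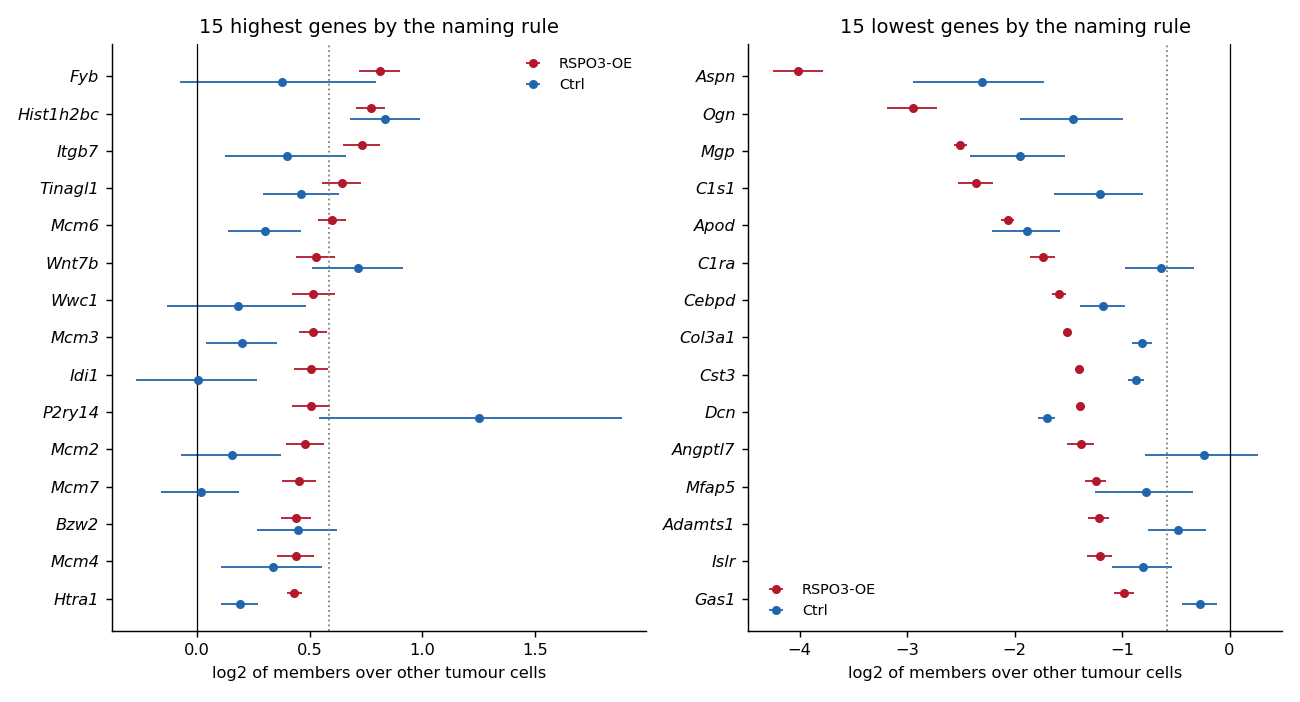
Log2 difference between Krt8-high members and the other tumour cells of the same library for the 15 highest and the 15 lowest genes by the naming rule, with 95% counting intervals. The dotted line marks 1.5-fold; the lowest genes reach log2 -4.01 (Aspn) while the highest stays at 0.81 (Fyb).

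The 15 highest genes by the naming rule differed by far less than the 15 lowest. Some genes under its 50 CPM minimum were further apart in RSPO3-OE, such as Ung (log2 1.01) and Phlda2 (log2 1.56). The first of these 15 highest was Fyb, an adaptor protein best known from T cells, at 61.4 against 35.0 CPM in RSPO3-OE (log2 0.81, interval 0.72 to 0.90) and 17.9 against 13.8 CPM in Ctrl (log2 0.37, interval -0.08 to 0.79). The histone gene Hist1h2bc was at 119 against 69.7 CPM (log2 0.77) and 134 against 74.99 CPM in Ctrl (log2 0.83). Itgb7, an integrin beta chain known from lymphocyte homing, was at 70.0 against 42.2 CPM (log2 0.73) and lies 219 kb from Krt8, counted between lowest coordinates. Tinagl1, a matrix-associated protein, and Mcm6 were the only others of the 15 past 1.5-fold in RSPO3-OE. The secreted Wnt ligand Wnt7b was at 61.6 against 42.8 CPM (log2 0.53) and 81.5 against 49.7 CPM in Ctrl (log2 0.71).

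Some genes of DNA replication were on this side, most of them under 1.5-fold. Mcm2, Mcm3, Mcm4, Mcm6 and Mcm7, subunits of the replicative helicase, were among the 15 highest, between log2 0.44 and 0.60 inside RSPO3-OE, and between 0.01 and 0.33 inside Ctrl. Mcm6 stood at 116 against 76.6 CPM and was the only one of the 5 past 1.5-fold. In the S phase list 23 of 24 genes were above 0 in RSPO3-OE with a median of 0.32. Of these, 3 were at least 1.5-fold higher, beside 3.8% of all genes. Among the 3 were Ung (16.1 against 7.99 CPM), a DNA repair glycosylase, and Cdc6 (19.8 against 12.4 CPM), which licenses origins. In Ctrl 16 of 24 were above 0, none was 1.5-fold higher and the median was 0.09. The G2 and M phase list stood at a median of -0.13 in RSPO3-OE, with none of 24 genes 1.5-fold apart, and -0.11 in Ctrl. Cells with a UMI of Mki67, Top2a or Cdk1, which mark dividing cells, were 50.4% of RSPO3-OE members and 45.9% of the others after thinning (86.4% and 75.5% unthinned). Depth moved with membership, at a median of 28807.5 UMIs in members and 24580 in the others. With the others weighted to the members' depth, the S phase median was 0.16.

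Cholesterol synthesis genes, listed after the values were seen, were all above 0 in RSPO3-OE. None of 19 reached 1.5-fold and their median was 0.32. Idi1, which makes the isoprenoid building block, stood at 81.3 against 57.2 CPM, and Fdps, which joins these units, at 348 against 263 CPM. In Ctrl 7 of 19 were above 0 and the median was -0.05. A ribosome biogenesis list, also made afterwards, had 18 of 20 genes above 0 in RSPO3-OE (median 0.23), with the nucleolar protein gene Npm1 at 3097 against 2434 CPM, and 11 of 20 in Ctrl (median 0.01).

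Genes of the interferon response and of the MHC class I pathway lay mostly below 0 in Krt8-high cells of RSPO3-OE, and most of them were under 1.5-fold apart. Over all genes, 9.78% were at least 1.5-fold lower and 3.8% higher inside RSPO3-OE, and 6.75% and 1.63% inside Ctrl. All 18 type I interferon genes were below 0, 6 of them at least 1.5-fold lower, with a median of -0.50. Irf7, the factor that amplifies this response, stood at 77.6 against 126 CPM. In Ctrl 15 of 18 were below 0, 6 at least 1.5-fold lower, and the median was -0.23. All 15 MHC class I genes were below 0 in RSPO3-OE with a median of -0.35 but 2 at least 1.5-fold lower, beside 9.78% of all genes, and H2-T23, which encodes Qa-1, stood at 162 against 295 CPM. In Ctrl the class I median was 0.06, and H2-T23 stood at 162 against 181 CPM. For the interferon gamma list, 18 of 21 genes were below 0 in RSPO3-OE, 5 of them at least 1.5-fold lower (median -0.41), and 13 of 20 in Ctrl (median -0.12). The chemokine list held 5 of 14 genes at least 1.5-fold lower in RSPO3-OE and none of 8 in Ctrl, where 1 was higher, and Cxcl9, an attractant of T cells, stood at 78.3 against 152 CPM. The Mgp and Apod high cells of RSPO3-OE, nearly all of them among the others, stood at 222 CPM of Irf7, 592 of H2-T23 and 327 of Cxcl9. Their part in these differences was not tested. Whether the libraries differed in the interferon, MHC class I and chemokine lists was not tested.

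Rspo3, the overexpressed gene, was at a similar level in Krt8-high and other tumour cells of RSPO3-OE. In members it stood at 100.1 CPM against 108.7 CPM in the others, and 23.2% against 21.99% of cells had a UMI (9.40% and 9.05% after thinning). Cells with at least 10 Rspo3 UMIs were 10.2% of members and 7.80% of the others. These 347 cells, 22.5% of them members, were low in matrix genes too. Mgp stood at 88.9, Dcn at 1160, Col3a1 at 776 and Aspn at 23.5 CPM in them. Low matrix genes were thus not particular to Krt8-high cells. Axin2, a classical target of Wnt signalling, was near 1 CPM in members and in the others (0.976 against 1.23 CPM). In RSPO3-OE 1 of 16 genes of the Wnt list was at least 1.5-fold lower, with none higher (median -0.20), beside 9.78% and 3.8% of all genes. In Ctrl 4 of 7 were lower and 1, Wnt7b, was higher (median -0.94), beside 6.75% and 1.63% of all genes. Dkk3, of the Dickkopf family, fell under the count minimum in Ctrl and is not among these 7. It stood there at 11.8 CPM in members against 1.63 CPM in the others, and inside RSPO3-OE at 5.22 against 7.34 CPM.

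Outside the score, 14 genes were at least 1.5-fold higher in the members of both libraries. They were 40.0% of the 35 such genes of RSPO3-OE and 8.86% of the 158 of Ctrl, among 9716 genes with at least 10 UMIs expected in the members of each. They were named after their values were seen. Without the 1 member with most UMIs of the gene in each library, 10 of the 14 stayed past 1.5-fold in both, and Crybb1, Eomes, Srd5a1 and G930009F23Rik did not. Phlda2, an imprinted regulator of placental growth, was the furthest apart in both, at 5.65 against 1.91 CPM (2.95-fold) in RSPO3-OE and 32.0 against 10.7 CPM (2.99-fold) in Ctrl. Plet1, a surface protein of placenta and epithelial progenitors, was at 36.7 against 20.3 CPM and 20.6 against 6.89 CPM. Both genes differed in the same direction at unlike levels, since the Phlda2 level was higher in Ctrl and that of Plet1 in RSPO3-OE. Pdgfb, a growth factor ligand, was at 20.8 against 10.8 CPM and 17.9 against 9.67 CPM. Eomes, a T-box factor of trophoblast and lymphocytes, was at 4.25 against 2.81 CPM and 9.91 against 4.82 CPM. Cgnl1, a protein of cell junctions, was at 11.2 against 7.21 CPM and 13.3 against 5.23 CPM. The others were Card10, Crybb1, Elovl7, Hist1h2bc, Spns3, Srd5a1, Tnnt2, 2200002D01Rik and G930009F23Rik. On the lower side 92 genes were shared, 32.9% of the 280 of RSPO3-OE and 14.05% of the 655 of Ctrl.

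Ranking RSPO3-OE tumour cells into deciles of the score shows where the differences set in. Krt8 went from 8.02 CPM in decile 1 to 321 in decile 7, 1053 in decile 9 and 2472 CPM in decile 10. S100a16, Lrrn4cl and Itgb4 did not follow it to the top: S100a16 peaked at 219 CPM in decile 7 and stood at 158 CPM in decile 10. Mgp was at 402 CPM in decile 1, highest at 877 in decile 3, and at 70.0 CPM in decile 10. Aspn was at 171 CPM in decile 4, 10.5 in decile 9 and 2.52 CPM in decile 10. Mcm6 lay between 66.7 and 76.4 CPM up to decile 6 and at 123 CPM in decile 10. Depth also went up, from a median of 22006.5 UMIs per cell in decile 1 to 28905.5 in decile 10. Members filled decile 10 and 344 cells of decile 9.

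**Figure D3:**
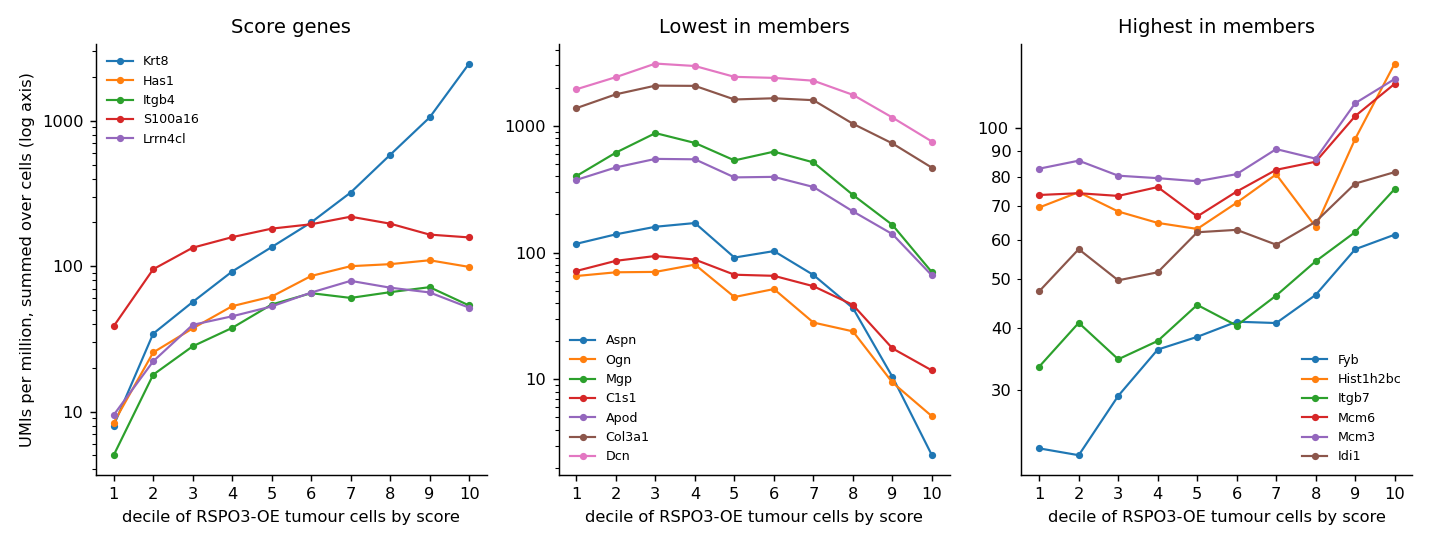
Summed level, in CPM on log axes, of the score genes and of the lowest and highest named genes over deciles of the RSPO3-OE tumour cells ordered by score. Krt8 climbs to decile 10 (2472), the other 4 score genes level off or turn down, Aspn and Mgp drop over the last 3 deciles, and Mcm6 and Hist1h2bc are highest in the last 2.

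The members differed among themselves in genes outside the score. The 66 RSPO3-OE members in which Krt8 was not most of the score had more Mgp than the 700 led by Krt8, 330 against 84.0 CPM, more Dcn, 2029 against 832 CPM, and less Mcm6, 66.9 against 119 CPM. In these genes they lay nearer the other tumour cells (561 CPM of Mgp, 76.6 CPM of Mcm6) than the members led by Krt8. Only 7 RSPO3-OE members had no Krt8 UMI. The 78 members with at least 10 Rspo3 UMIs had 1962 CPM of Krt8 against 1859 CPM in the other 688, and 47.8 against 104 CPM of Mgp.

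With members chosen in other ways, these differences went with Krt8 more than with the 4 other score genes. With Krt8 alone as the score, the fibroblast list stood at -0.99, the type I interferon list at -0.45 and the S phase list at 0.34, close to the values with 5 genes. The other score genes then stood at log2 0.33 (Has1), -0.03 (Itgb4), -0.25 (S100a16) and -0.34 (Lrrn4cl) in RSPO3-OE. With Krt8 left out of the score, the fibroblast list stood at 0.35, the matrix list at 0.36, the S phase list at -0.21 and the G2 and M phase list at -0.97, and Mgp was at 0.79 instead of -2.51. For the fibroblast, matrix and S phase lists, cells high in the 4 other genes and cells high in Krt8 thus stood on opposite sides of the remaining tumour cells, while the G2 and M phase list was below 0 in both. The share of members was higher in RSPO3-OE either way, 19.4% against 0.834% without Krt8 and 17.6% against 2.55% with Krt8 alone. Each choice set a single limit over both libraries on genes read at higher levels in RSPO3-OE, so these shares follow from the rule.

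**Figure D4:**
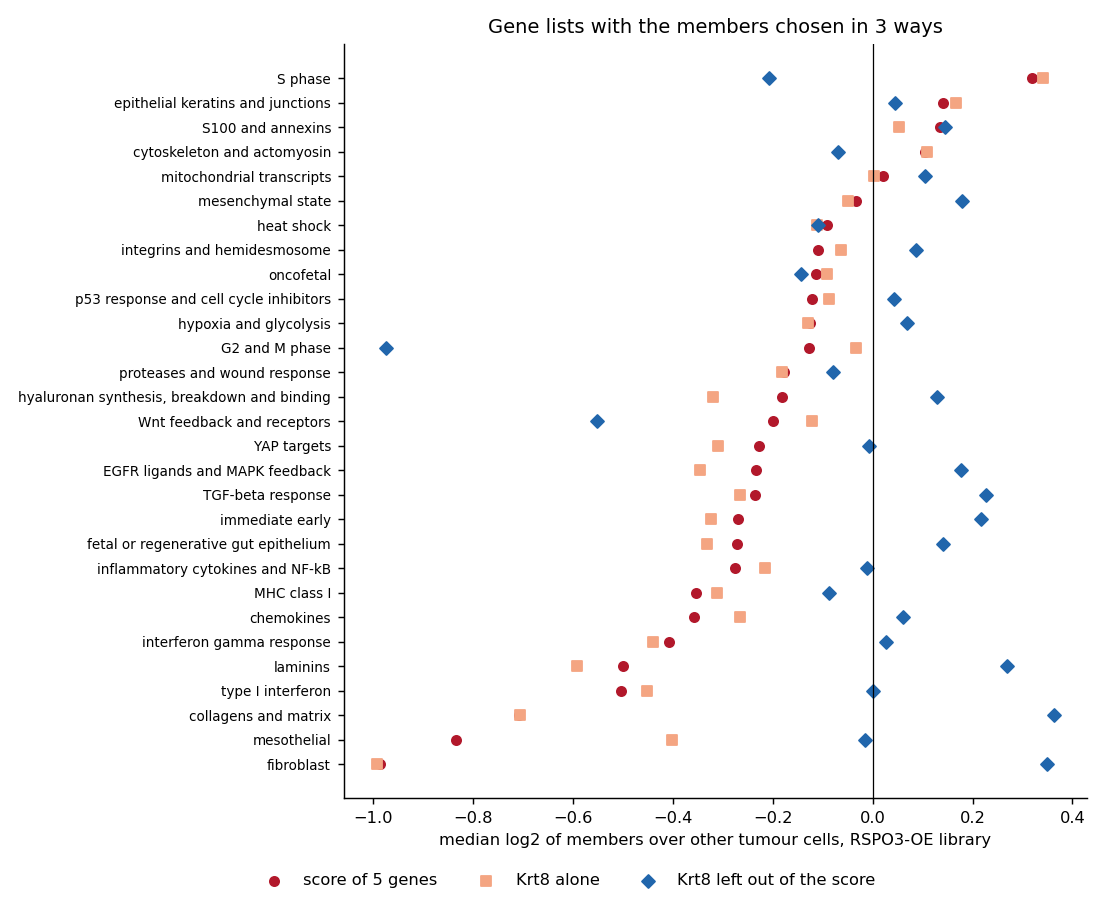
Median log2 difference between members and other tumour cells inside RSPO3-OE for 29 gene lists, with members chosen by 5 genes, by Krt8 alone or by the 4 genes without Krt8. The first 2 choices nearly coincide for the fibroblast list (both -0.99), which moves to 0.35 when Krt8 is left out.

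The members of the 2 libraries were also set beside each other. Of 9452 genes, 856 were at least 1.5-fold higher (9.06%) and 870 lower (9.2%) in RSPO3-OE members than in Ctrl members. Between the libraries, Has1 was higher in RSPO3-OE by log2 4.51 among members and 4.82 among the other tumour cells, and Itgb4 by 2.99 and 3.36. Krt8 stood at -0.20 among members, where the score had selected for it in both libraries, and at 2.51 among the others. In this comparison 16 of 20 interferon gamma genes and 15 of 22 immediate early genes were at least 1.5-fold higher in RSPO3-OE members, and 19 of 21 hypoxia and glycolysis genes were below 0 (median -0.37). The other tumour cells differed between the libraries in the same direction. The interferon gamma list summed to 2546 against 1484 CPM in RSPO3-OE and Ctrl members and to 3296 against 1532 CPM in the others. The immediate early list summed to 13640.3 against 8732 CPM in members and 16493 against 9461 CPM in the others, and the hypoxia list to 5202 against 6696 CPM and 5138 against 6203 CPM. Inside Ctrl, 4 of 21 hypoxia genes were at least 1.5-fold higher in members, beside 1.63% of all genes. Among them was Ero1l, an oxidase of protein folding, at 211 against 135 CPM (log2 0.65, and 0.48 without the 1 member with most UMIs). Inside RSPO3-OE Ero1l stood at 112 against 144 CPM.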

How the data were processed

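The 2 libraries of dissociated MC38 tumours were prepared with a Chromium 3′ kit and sequenced once each. Cell Ranger 3.0.1 and the mm10 build are named per the submitters' processing notes; the file headers name software version 3.1.0. The deposited values are raw UMI counts per gene and cell, with no normalization, for 32285 features. Kept barcodes had at least 200 genes and at most 20% mitochondrial UMIs: 7164 of 7314 in RSPO3-OE (median 19246 UMIs) and 6990 of 7301 in Ctrl (median 16739.5). The libraries shared 7 kept barcodes, 3 of them tumour cells and 0 of them members.

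UMIs were summed over cells of a set and scaled to 1000000 (CPM). Log2 ratios carry exact binomial 95% intervals, which cover counting error only. A gene counted as higher or lower past 1.5-fold. Inside RSPO3-OE genes needed 10 UMIs over both sets; inside Ctrl and between the libraries they needed 10 UMIs expected in the smaller set, a change from the planned filter that was made after seeing the data. Thinning drew 2000 UMIs per cell and left out 1 RSPO3-OE and 3 Ctrl tumour cells. To be named, a gene needed 100 UMIs and 50 CPM in whichever set was higher, at least 0.5 times the level over all kept cells, and the same sign in Ctrl. The 15 highest and 15 lowest were taken, with up to 2 highest and 2 lowest genes of each list. This left 2706 genes, 1726 of the same sign. The members and the 39 gene lists were chosen with earlier results of these data known, and the cholesterol, ribosome biogenesis and complement lists and the genes shared by both libraries were chosen after their values were seen. Doublets were not removed; Scrublet, run as an alternative, marked 171 cells (2.39%) of RSPO3-OE and 95 (1.36%) of Ctrl, among them 2 and 1 members. The comparison was tested on simulated data. The tools were scanpy 1.11.5, matplotlib 3.10.9, pandas 2.3.3, scipy 1.17.1 and numpy 2.4.6 under Python 3.11.15. Genes named after their values were seen were also computed without the member with most UMIs. Alternatives numbered 20, of which 3 were added after seeing the data.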

Additional observations from a re-analysis of the deposited data

Results flagged for a closer look

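Of the genes at least 1.5-fold lower in Krt8-high cells inside RSPO3-OE, 9 were at least 1.5-fold higher in those inside Ctrl, which is what marked them. With 1 library per group the difference between the libraries was not tested. Col1a1, a chain of the main fibrillar collagen, stood at log2 -1.46 inside RSPO3-OE (40.1 against 110 CPM) and 0.78 inside Ctrl (138 against 80.3 CPM), unlike Col3a1, which was lower in both. Grem1, a secreted BMP antagonist, stood at -1.06 (20.1 against 41.8 CPM) and 0.74 (64.8 against 38.8 CPM). Wls, which carries Wnt ligands to the cell surface, stood at -0.66 and 0.99, with 34 UMIs in Ctrl members. The 6 others were Batf3 (log2 -0.74 and 1.29), Fbxo2 (-1.05 and 1.56), Mtus1 (-1.01 and 0.71), Nnmt (-0.81 and 0.84), Osgin1 (-0.64 and 0.60) and Zfhx4 (-0.69 and 0.98). Ctrl members gave between 25 and 361 UMIs for each of the 9 genes. Without the 1 Ctrl member with most UMIs of the gene, Mtus1 stood at 0.55 and Osgin1 at 0.41 there, under 1.5-fold, and the 7 others stayed past it.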

How the results depend on the processing

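No paired analysis was possible because each group had 1 library. Of 20 alternatives, those that changed the score turned most signs. With Krt8 left out, log2 values inside RSPO3-OE turned to 0.35 for the fibroblast and 0.36 for the matrix list, -0.051 for Hist1h2bc, -0.39 for Itgb7, -0.37 for Tinagl1, -0.072 for Mcm6, 0.15 for Aspn, 0.015 for Ogn, 0.79 for Mgp, 0.23 for C1s1, 0.47 for Apod, 0.16 for C1ra, 0.63 for Cebpd, 0.54 for Col3a1, 0.064 for Cst3, 0.56 for Dcn, 0.015 for Angptl7, 1.31 for Mfap5, 0.11 for Adamts1, 0.12 for Islr, -0.25 for Krt8 and -3.37 for Krt18. In Ctrl they turned to 1.66 for Aspn, 0.99 for Ogn, 1.28 for Mgp, 0.95 for C1s1, 2.08 for Apod, 1.04 for C1ra, 1.16 for Cebpd, 1.35 for Col3a1, 1.30 for Cst3, 1.27 for Dcn, 1.88 for Mfap5 and 0.30 for Islr, with 509 genes higher and 1058 lower there, and members made up 19.4% and 0.834% of RSPO3-OE and Ctrl tumour cells. With equal weights, the matrix list was at 0.082 and Mfap5 at 0.63 inside RSPO3-OE. In Ctrl, equal weights gave 0.53 for Aspn, 1.01 for Mgp, 0.26 for C1s1, 1.49 for Apod, 0.52 for C1ra, 0.21 for Cebpd, 0.37 for Col3a1, 0.31 for Cst3, 0.74 for Dcn and 1.17 for Mfap5, with 391 genes higher, and shares of 19.4% and 0.787%. With the highest 10% taken in each library, Ctrl values were 0.79 for Mgp, 0.18 for Apod, 7.71e-05 for C1ra and 0.30 for Mfap5, 256 genes were lower in Ctrl and 1633 between libraries, and shares were 9.99% and 10.0%. The highest 5% gave shares of 9.02% and 1.09% and Has1 at -0.76 in Ctrl, and the highest 20% gave shares of 37.1% and 3.31%. With Krt8 alone, the Ctrl share was 2.55% and Has1 there was -0.079; with at least 2 Hmga2 UMIs, Has1 there was -1.39. Thinned to 2000 UMIs, the mesothelial list was at 0.081, Cdh1 at -1.05 and Mgp in Ctrl at 0.87, with 102 genes higher and 205 lower in Ctrl, 275 higher and 145 lower between libraries, and a Ctrl share of 1.51%. Absence of Y-linked UMIs in place of Hmga2 put the mesothelial list at 0.11. Among cells without Mki67, Top2a or Cdk1, P2ry14 in Ctrl was at -0.47, 306 genes were lower between libraries and the Ctrl share was 1.51%. With no minimum of UMIs, 1307 genes were higher inside RSPO3-OE, 1676 higher and 1231 lower inside Ctrl, and 1317 higher and 2892 lower between libraries. With 10 UMIs expected among the members, 167 were higher and 742 lower inside RSPO3-OE. Mean CPM of cells gave 262 higher in Ctrl. Without the Mgp and Apod high cells, the RSPO3-OE share was 21.3%. The cause of these moves was not tested beyond how each alternative is built. Of values for the 24 named genes past 1.5-fold inside RSPO3-OE, over 20 alternatives, 458 of 480 kept their sign. Most of the 22 that turned came from the single alternative with Krt8 left out, where most of these genes turned. Inside Ctrl 369 of 400 kept their sign. The 87 Ctrl members limit that library: Has1 there rests on 12 UMIs.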

Other observations

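Further gene groups differed between Krt8-high and other tumour cells. Nuclear receptors of the immediate early response were low in both libraries: Nr4a2 stood at 98.9 against 180 CPM in RSPO3-OE and 9.91 against 35.4 CPM in Ctrl, and Nr4a3 at 4.92 against 23.9 CPM in RSPO3-OE. In RSPO3-OE cells with at least 10 Rspo3 UMIs, 22.5% of them members, Nr4a2 stood at 79.8 CPM and Nr4a3 at 9.40 CPM. Low Nr4a2 and Nr4a3 were thus not particular to Krt8-high cells. In the immediate early list 21 of 22 genes were below 0 in RSPO3-OE (median -0.27) and 15 of 20 in Ctrl (median -0.15). Of 8 laminin genes, which build basement membrane, 4 were at least 1.5-fold lower in RSPO3-OE, beside 9.78% of all genes. Among these, Lama2 rests on 2 UMIs in the members. In Ctrl none of 4 was lower, beside 6.75% of all genes.

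Some genes were higher in Krt8-high cells. Anxa8, an annexin, stood at 20.5 against 12.4 CPM in RSPO3-OE and 5.33 against 1.19 CPM in Ctrl, from 14 UMIs there. Csf2, which encodes the growth factor GM-CSF, stood at 11.6 against 6.25 CPM in RSPO3-OE. In Ctrl it was at 9.14 against 3.65 CPM, but 15 of its 24 UMIs came from 1 member, without which the log2 was -0.08 in place of 1.32. Hbegf, a ligand of the EGF receptor, stood at 233 against 177 CPM and 139 against 108 CPM, while Egfr itself stood at 4.92 against 9.99 CPM and 5.33 against 8.88 CPM. Tpm1, a tropomyosin, stood at 630 against 502 CPM and 772 against 536 CPM. RSPO3-OE cells with at least 10 Rspo3 UMIs stood at 21.3 CPM of Anxa8, 8.94 of Csf2, 224 of Hbegf, 6.08 of Egfr and 559 of Tpm1. These differences were thus not particular to Krt8-high cells.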
